A study of Mus musculus with 12 samples.

Results

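Reelin is a large glycoprotein that Cajal-Retzius (CR) neurons secrete into layer 1 of the developing cortex. Migrating neurons receive it through the lipoprotein receptors ApoER2 (encoded by Lrp8) and VLDLR, and receptor clustering leads Src-family kinases to phosphorylate the cytoplasmic adaptor DAB1. Loss of the ligand, of both receptors or of the adaptor disturbs the layering of the cortex. The 4 genes described here are Reln, Lrp8, Vldlr and Dab1, which were taken by name as the ligand, its receptors and their adaptor. All 4 were present among the 4859 coding genes of the expression table, and none was absent.

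Expression was measured by bulk RNA-seq in 12 libraries of sorted mouse cells, with 2 libraries in each of 6 groups. Every embryo came from the transgenic strain Tg(Ebf2-EGFP)FB58Gsat, in which regulatory sequence of Ebf2 drives EGFP, and every group was dissociated from the cerebral cortex, with several EGFP-carrying embryos pooled per experiment. Ebf2-EGFP+ cells and Ebf2-EGFP- cells were sorted by FACS from embryos of 3 stages (E11.5, then E13.5, then E15.5), and no agent or further mutation distinguished the groups. The reporter labels early-born preplate neurons, in which CR neurons are not the only type, and the Ebf2-EGFP- fraction is all other cells of the dissected tissue. Per the paper, the Ebf2-EGFP+ cells are mostly subplate and CR neurons at E11.5. It describes the label as fading in subplate neurons at E13.5 and the labelled cells as mostly CR neurons by E15.5. Stage changes within this fraction are therefore not those of a fixed set of cells. The comparisons ask how the ligand and the genes needed to receive it are divided between the reporter-positive cells and the rest of the cortex as neurogenesis proceeds.

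Levels are FPKM (fragments scaled by transcript length and by the mapped fragments of the library), so that genes of one library can be set side by side. The table holds no fragment counts and the methods give depth only as an average, so the depth of each library is unknown and no interval for counting error is stated. The listed genes summed to between 111136 and 146703 FPKM per library. Differences are on the log2(FPKM + 1) scale with the standard error (SE) of 1 limma fit of all libraries, which understates the change of low genes. A difference was called at a Benjamini-Hochberg adjusted p under 0.05 over the 4859 genes. Whether the libraries of compared groups overlap is given as a description, without a share over all listed genes. With 2 libraries per group they can stand apart where no difference is called. Because the authors listed a gene only when they found it differential in these same libraries, many listed genes pass such a test, and the share that does is given beside the first count of each comparison. Fewer expressing cells and less RNA per cell cannot be told apart in bulk libraries.

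The sorted fractions were first set against marker genes. In Ebf2-EGFP+ cells the 9 CR markers other than Reln summed over the stages in turn to 326 to 367, 80.8 to 91.2 and 213 to 353 FPKM, against 8.01 to 16.9 in the 6 Ebf2-EGFP- libraries. The list holds Ebf2, whose reporter defines the sort, and Nhlh2 and Cacna2d2, which the paper found enriched in Ebf2-EGFP+ cells of these libraries. Their part of this excess is therefore no independent check of the sort. The 8 cortical plate neuron markers were also high in Ebf2-EGFP+ cells, at 521 to 595, then 1391 to 1509, then 753 to 1132 FPKM. The Ebf2-EGFP- cells carried the radial glia markers (456 to 1624 FPKM) and the interneuron markers (138 to 218 FPKM) at every stage, and their cortical plate markers went from at most 107 FPKM at the first stage to 976 to 1100 FPKM at the last. In Ebf2-EGFP+ cells the radial glia markers summed to 406 to 430, then 201 to 222, then 89.0 to 152 FPKM. The 4 intermediate progenitor markers were higher in Ebf2-EGFP+ than in Ebf2-EGFP- cells at E11.5 (220 to 232 against 76.9 to 85.6 FPKM). They were lower there at E13.5 (101 to 161 against 306 to 428 FPKM) and E15.5 (28.3 to 46.7 against 146 to 286 FPKM). Blood cell genes summed to 1205 and 2605 FPKM in the Ebf2-EGFP- libraries of E11.5. Of the endothelial and microglial lists only 3 of 7 and 1 of 6 genes were in the table.

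Reln (chromosome 5, 21884454 to 22344702, minus strand, GRCm38) was high in every Ebf2-EGFP+ library and low in every Ebf2-EGFP- library. From the first stage to the last, its level in replicates 1 and 2 of the Ebf2-EGFP+ cells was 75.9 and 76.3, then 125 and 187, then 399 and 925 FPKM. The Ebf2-EGFP- cells had 2.98 and 2.79, then 2.77 and 4.22, then 13.7 and 10.6 FPKM. The populations did not overlap at any stage, and the lowest Ebf2-EGFP+ library lay above the highest Ebf2-EGFP- library of all stages.

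The group means, 76.1 ± 0.296, 156 ± 43.8 and 662 ± 371 FPKM in Ebf2-EGFP+ cells and 2.89 ± 0.135, 3.50 ± 1.03 and 12.1 ± 2.12 FPKM in Ebf2-EGFP- cells (SD, n = 2 each), stood in ratios of 26.3, 44.6 and 54.5 at the 3 stages. These correspond to log2 differences of 4.31 (adjusted p = 7.09e-07), 5.12 (adjusted p = 1.42e-06) and 5.54 (adjusted p = 5.78e-07), each with an SE of 0.33. On this scale, where the added 1 shrinks the difference of a gene near 0 in one population, Reln had the 17th largest difference of the listed genes at E11.5 and the largest at both later stages. By the ratio of mean FPKM alone, other genes stood further apart than Reln at those later stages, among them Trp73 and Lhx5, a pair of CR transcription factor genes. Its rank by mean level in Ebf2-EGFP+ cells went from 258th to 110th to 21st of 4859. Exons of Reln overlap those of Gm10475, an antisense gene on the opposite strand, and the library kit is not stated to keep strand, so reads of both cannot be told apart there.

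**Figure D1:**
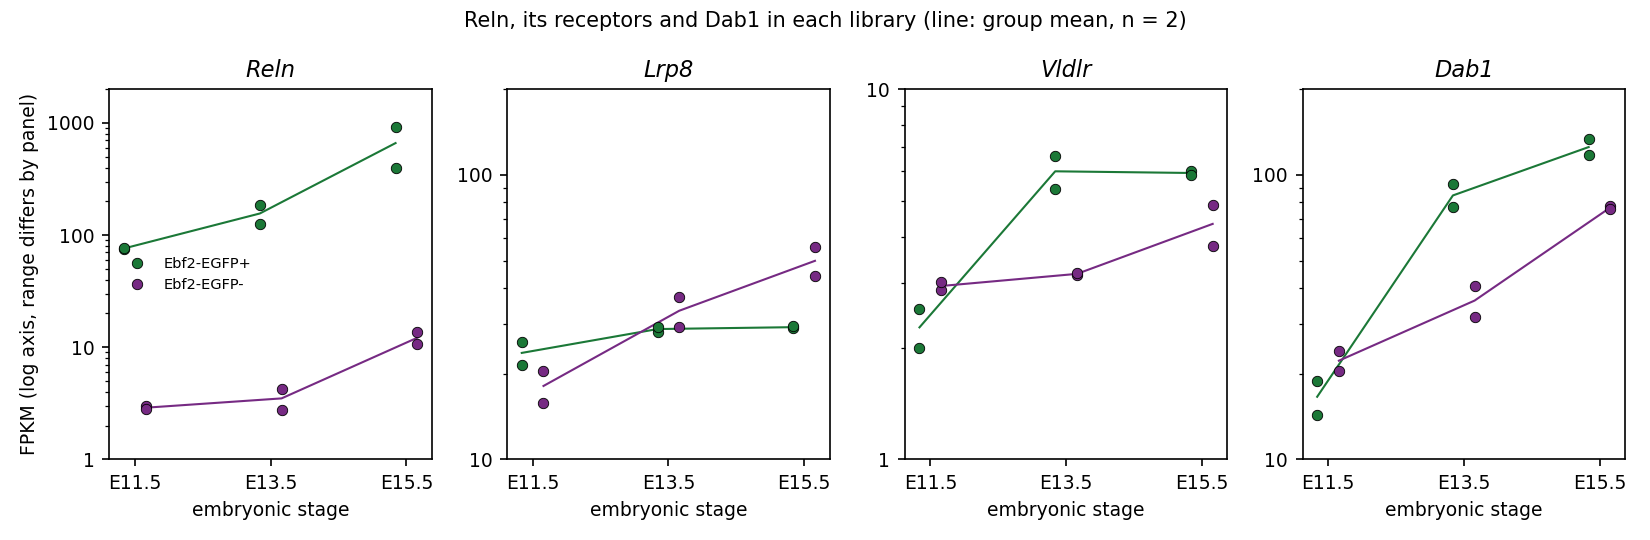
FPKM (log axis, with its own range in each panel) of Reln, Lrp8, Vldlr and Dab1 by embryonic stage, where each point is a library, green is Ebf2-EGFP+, purple is Ebf2-EGFP- and lines join the means of 2 libraries. Reln stays apart between the populations at every stage, and the Lrp8, Vldlr and Dab1 lines cross between E11.5 and E13.5. Vldlr is below 7 FPKM in all libraries.

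The sequence before the Reln start is shown because the sort rests on Ebf2, whose family binds DNA at a palindromic core. Reln was also the only member higher in Ebf2-EGFP+ cells at every stage. RefSeq (GRCm38.p6) gives 1 start for Reln and 8 starts for the 4 members together. The 250 bases before the Reln start, at chr5:22344706-22344955 on the minus strand, are printed with matches to the EBF core CCCNNGGG in capitals.

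Reln: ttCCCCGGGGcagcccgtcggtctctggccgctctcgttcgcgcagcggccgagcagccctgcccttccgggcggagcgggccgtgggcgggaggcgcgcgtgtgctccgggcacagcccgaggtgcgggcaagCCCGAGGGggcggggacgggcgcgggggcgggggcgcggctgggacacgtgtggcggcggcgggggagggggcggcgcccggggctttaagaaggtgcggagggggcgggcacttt

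This window held 2 EBF core matches, 37 CpG and 80% G or C. It had more CpG than 97.8% of all RefSeq promoter windows of that length, whose median was 6. The core, which reads alike on both strands, occurred at least once in 11.8% of the 32851 windows, which were not matched for G or C content. Also found were 6 matches to the GC box GGGCGG on either strand, which 32.7% of windows hold, and 1 match to the E-box CANNTG, which 66.2% hold, with none to the T-box core GGTGTGA, which 3.33% hold. Among the other members, 1 of 3 starts of Lrp8 held an EBF core match, and neither the starts of Dab1 nor those of Vldlr held one. A match is a description of letters and not of binding.

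Within the Ebf2-EGFP+ cells Reln rose at each step. The change was 1.00 on the log2 scale from E11.5 to E13.5 (SE 0.33, adjusted p = 0.0208) and 1.98 from E13.5 to E15.5 (SE 0.33, adjusted p = 0.000743), together 2.98 (adjusted p = 8.30e-06). In the listed genes 57.9%, 41.9% and 75.4% were called in these comparisons, which share libraries with each other. The first step lost its call without either E11.5 Ebf2-EGFP+ library (0.99 without replicate 1, adjusted p = 0.0813, and 1.00 without replicate 2, adjusted p = 0.0808) and without replicate 2 of E13.5 Ebf2-EGFP+ (0.71, adjusted p = 0.165). The second step held its call without each of the 12 libraries in turn.

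Other CR genes did not take the same course as Reln in these cells. Ebf2 itself, a transcription factor of early neurons and the gene of the reporter, had means of 55.1, 5.49 and 3.98 FPKM over the 3 stages. Trp73, which encodes the CR transcription factor p73, had means of 34.8, 12.4 and 48.2 FPKM, and Calb2, which encodes the calcium-binding protein calretinin, 58.5, 14.8 and 48.6 FPKM. The summed CR markers without Reln were thus lower at E13.5 than at E11.5, while the Reln mean went from 76.1 to 156 FPKM.

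The E15.5 Ebf2-EGFP+ libraries differed from each other more for Reln than for nearly all other genes. Replicate 2 had 2.31 times the Reln FPKM of replicate 1, and 0.844% of the listed genes differed more between these libraries on the log2 scale. Of the other 9 CR markers 8 were also higher in replicate 2, with a median ratio of 1.44 and a range of 0.810 to 4.23, and Ndnf, which encodes a secreted factor of layer 1 cells, had the ratio of 4.23. Cortical plate markers (1132 against 753 FPKM) and radial glia markers (152 against 89.0 FPKM) were lower in replicate 2. The part of these differences in the Reln level was not tested. Without replicate 2 the E15.5 population difference of Reln was 4.94 and without replicate 1 it was 6.15.

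In the Ebf2-EGFP- cells Reln did not pass the test from E11.5 to E13.5, where the log2 difference was 0.19 (95% interval -0.52 to 0.90, adjusted p = 0.626) and the libraries overlapped. It rose from E13.5 to E15.5 by 1.56 (SE 0.33, adjusted p = 0.0019), which was not called with a pseudocount of 10 (0.71, adjusted p = 0.0648). From E11.5 to E15.5 the change was 1.75 (SE 0.33, adjusted p = 0.000319). Calls made up 59.5%, 63.6% and 85.4% of the listed genes in these comparisons.

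Expressed as a share, Reln in Ebf2-EGFP- cells stood at 3.80%, 2.24% and 1.84% of its Ebf2-EGFP+ mean over the 3 stages. The same share over the 9 other CR markers had a median of 2.51%, 9.59% and 2.50%, with ranges of 0.344% to 138%, 1.22% to 24.4% and 0.466% to 8.19%. The Reln share lay inside the range of the other CR markers at each stage. The summed level of those markers in Ebf2-EGFP- cells was 16.3 to 16.9, 10.2 to 11.4 and 8.01 to 12.8 FPKM. From E13.5 to E15.5, where Reln rose, the separate markers did not move together in these cells. Calb2 (0.299, then 2.16 FPKM), Trp73, Lhx1, Lhx5, Cacna2d2 and Ndnf had higher means at E15.5. Ebf2, Ebf3 and Nhlh2 (6.29, then 4.25 FPKM) had lower means. Of these 9 markers 5 at E13.5 and 6 at E15.5 were under 1 FPKM in both Ebf2-EGFP- libraries. For Lhx1 and Ndnf the libraries of these stages overlapped. The interneuron markers, a class in which some cells express reelin later in life, summed to 158 to 218, 138 to 168 and 138 to 185 FPKM. Which cells of this fraction carried the Reln reads was not tested.

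**Figure D2:**
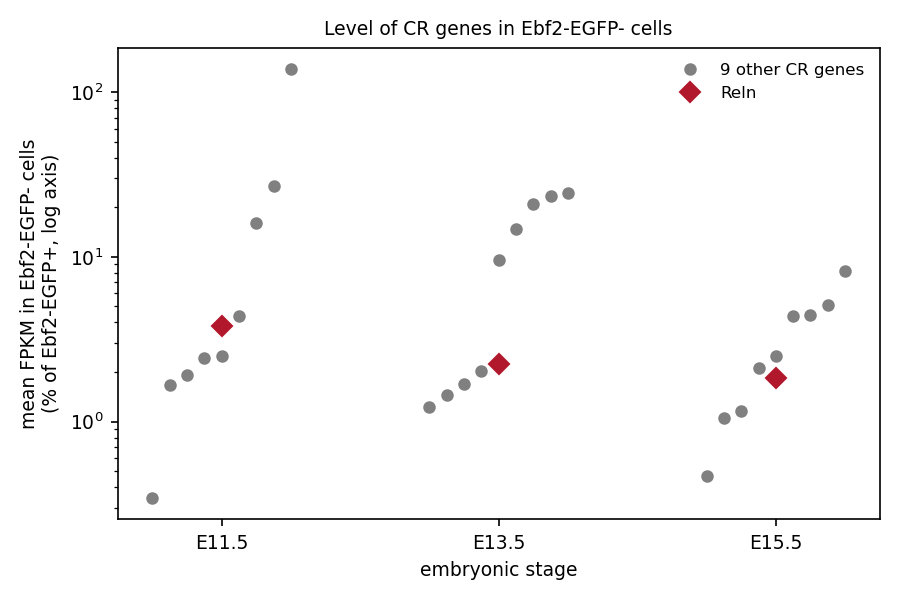
Mean FPKM in Ebf2-EGFP- cells as a percentage of the Ebf2-EGFP+ mean (log axis) by stage for Reln (red diamond) and 9 other CR genes (grey points, spread sideways in rank order). Reln lies at 3.80%, 2.24% and 1.84%, within the spread of the others, 1 of which, Ndnf, exceeds 100% at E11.5.

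The receptors were present in both populations, and Lrp8 exceeded Vldlr in every library. Lrp8 (chromosome 4, 107802261 to 107876840, plus strand) encodes ApoER2. The Ebf2-EGFP+ libraries held 21.5 and 25.9, then 28.1 and 29.3, then 28.9 and 29.4 FPKM of it. For the Ebf2-EGFP- libraries the values were 15.8 and 20.4, then 29.3 and 37.3, then 44.2 and 55.6 FPKM. The Ebf2-EGFP+ libraries were the higher ones at E11.5, the populations overlapped at E13.5, and the Ebf2-EGFP- libraries were the higher ones at E15.5.

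At E11.5 the Lrp8 difference was 0.37 on the log2 scale (95% interval -0.02 to 0.76, adjusted p = 0.0715), and with the replicate number as a block it was called (adjusted p = 0.0118). At E13.5 it was -0.20 (95% interval -0.59 to 0.19, adjusted p = 0.328), turning to 0.11 under median-of-ratios scaling. At E15.5 Lrp8 was 0.585 times as high in Ebf2-EGFP+ as in Ebf2-EGFP- cells, a log2 difference of -0.75 (SE 0.18, adjusted p = 0.00406) that was called under every alternative run. The change of the population difference between E11.5 and E15.5 was -1.12 (SE 0.25, adjusted p = 0.00292) and held in all alternatives.

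Over time Lrp8 rose in the Ebf2-EGFP- cells, by 0.84 to E13.5 (SE 0.18, adjusted p = 0.00193) and by 0.57 to E15.5 (SE 0.18, adjusted p = 0.0157). The second step was not called without replicate 1 of E13.5 Ebf2-EGFP- (0.40, adjusted p = 0.132) or without replicate 2 of E15.5 Ebf2-EGFP- (0.41, adjusted p = 0.127), nor in a fit of the compared groups alone (adjusted p = 0.0652). In Ebf2-EGFP+ cells no stage comparison of Lrp8 was called, with 0.30 from E11.5 to E15.5 (95% interval -0.10 to 0.69, adjusted p = 0.15), although median-of-ratios scaling gave 0.53 (adjusted p = 0.0382). Ordered by mean, Lrp8 was highest in E15.5 Ebf2-EGFP- cells (49.9 ± 8.04 FPKM, SD, n = 2), which differed from the next group, and none of the 4 lower neighbouring pairs was called.

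Vldlr (chromosome 19, 27216484 to 27254231, plus strand) encodes the very low density lipoprotein receptor. Over the stages it stood at 1.996 and 2.55, then 6.62 and 5.39, then 6.002 and 5.88 FPKM in Ebf2-EGFP+ libraries. It stood at 2.86 and 3.02, then 3.14 and 3.20, then 3.78 and 4.88 FPKM in Ebf2-EGFP- libraries. Vldlr was thus lower in Ebf2-EGFP+ libraries at E11.5 and higher there at the later stages, with no overlap at any of the 3.

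Only the E13.5 population difference of Vldlr was called, at 0.74 (SE 0.17, adjusted p = 0.00236). The E11.5 difference was -0.27 (95% interval -0.65 to 0.11, adjusted p = 0.164). The E15.5 difference was 0.39 (95% interval 0.01 to 0.77, adjusted p = 0.0735), and it was called with the replicate block (adjusted p = 0.0404), under median-of-ratios scaling (0.57, adjusted p = 0.0152), with a pseudocount of 10 (0.15, adjusted p = 0.0464) and without replicate 2 of E15.5 Ebf2-EGFP- (0.54, adjusted p = 0.0431). The change of the population difference from E11.5 to E15.5 was 0.66 (SE 0.25, adjusted p = 0.0357). That call was lost without 6 of the 8 libraries it compares, in turn, with values of 0.51 to 0.69 and adjusted p of 0.0654 to 0.132.

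Those 6 libraries were replicate 1 of E11.5 Ebf2-EGFP+, both replicates of E11.5 Ebf2-EGFP-, both replicates of E15.5 Ebf2-EGFP+ and replicate 1 of E15.5 Ebf2-EGFP-. Within Ebf2-EGFP+ cells Vldlr rose between E11.5 and E13.5 by 1.10 (SE 0.17, adjusted p = 0.000286) and then differed by -0.01 (95% interval -0.39 to 0.37, adjusted p = 0.978). Within Ebf2-EGFP- cells it changed by 0.43 from E11.5 to E15.5 (SE 0.17, adjusted p = 0.0365), a call lost without either E11.5 Ebf2-EGFP- library (0.40 and 0.46), without replicate 2 of E15.5 Ebf2-EGFP- (0.28) and in a fit of the compared groups alone (adjusted p = 0.0705). In the order of the 6 group means, from 6.002 ± 0.867 FPKM in E13.5 Ebf2-EGFP+ to 2.27 ± 0.392 in E11.5 Ebf2-EGFP+ cells (SD, n = 2), no neighbouring pair was called.

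Dab1 (chromosome 4, 103619359 to 104744844, plus strand), the adaptor that relays the signal inside the receiving cell, was abundant in the same fraction that held the ligand. Stage by stage, replicates 1 and 2 of the Ebf2-EGFP+ cells had 18.9 and 14.3, then 76.8 and 92.5, then 133 and 117 FPKM of Dab1. Those of the Ebf2-EGFP- cells had 24.0 and 20.4, then 31.6 and 40.7, then 77.5 and 76.1 FPKM. Ebf2-EGFP+ libraries were the lower ones at the first stage and the higher ones thereafter, without overlap at any stage.

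The E11.5 difference of Dab1 was -0.41 (95% interval -0.80 to -0.02, adjusted p = 0.0521), and it was called with the replicate block (adjusted p = 0.00283). At E13.5 Dab1 was 2.34 times as high in Ebf2-EGFP+ cells, a log2 difference of 1.21 (SE 0.18, adjusted p = 0.00011), and at E15.5 the log2 difference was 0.70 (SE 0.18, adjusted p = 0.00618). Both were called under every alternative run, as was the change of the difference from E11.5 to E15.5, 1.10 (SE 0.25, adjusted p = 0.00325). The E11.5 difference was called also without replicate 1 of E11.5 Ebf2-EGFP+ (-0.60, adjusted p = 0.0248) and under median-of-ratios scaling it was -0.16.

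Dab1 rose in both populations. In Ebf2-EGFP+ cells the rise was 2.29 to E13.5 (SE 0.18, adjusted p = 1.96e-06) and 0.56 from there to E15.5 (SE 0.18, adjusted p = 0.0258), the latter not called without replicate 1 of E13.5 Ebf2-EGFP+ (0.43, adjusted p = 0.184) or replicate 1 of E15.5 Ebf2-EGFP+ (0.47, adjusted p = 0.136). In Ebf2-EGFP- cells it was 0.67 to E13.5 (SE 0.18, adjusted p = 0.00746), not called without replicate 2 of E11.5 Ebf2-EGFP- (0.56, adjusted p = 0.0619) or replicate 2 of E13.5 Ebf2-EGFP- (0.49, adjusted p = 0.0749). From E13.5 to E15.5 it was 1.08 in these cells (SE 0.18, adjusted p = 0.000602). By mean, E15.5 Ebf2-EGFP+ cells (125 ± 11.6 FPKM, SD, n = 2) came first, E13.5 Ebf2-EGFP+ and E15.5 Ebf2-EGFP- cells followed without differing by the test (84.7 and 76.8 FPKM, adjusted p = 0.606), and both E11.5 groups came last.

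The rise of Dab1 and Vldlr in Ebf2-EGFP+ cells between E11.5 and E13.5 went with higher summed cortical plate markers there (521 to 595, then 1391 to 1509 FPKM). The CR markers other than Reln were lower (326 to 367, then 80.8 to 91.2 FPKM). Over the next step, to E15.5, Dab1 rose again in this fraction and Vldlr did not. The cortical plate sum was then lower (753 to 1132 FPKM) and the CR sum without Reln higher (213 to 353 FPKM). A sum is weighted to the highest genes. By the mean log2(FPKM + 1) of the cortical plate list the stages overlapped, at 6.26 and 6.19 for replicates 1 and 2 of E13.5 Ebf2-EGFP+ and 6.21 and 5.83 for those of E15.5. Dab1 and Lrp8 in Ebf2-EGFP- cells were higher at later stages, and so were the summed cortical plate markers of that fraction (at most 107, then 819 to 887, then 976 to 1100 FPKM). The part of these cells in the levels of the receptors and the adaptor was not tested.

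Set side by side, 1 of the 4 members was called between the populations at E11.5, where 81.7% of the listed genes were, 3 of 4 at E13.5 against 75.6%, and 3 of 4 at E15.5 against 57.4%. With the replicate number as a block these counts were 3, 3 and 4 of 4, against 86.8%, 82.8% and 70.3% of the listed genes. The change of the population difference from E11.5 to E15.5 was called for all 4 members, against 59.8% of the listed genes. It was positive for Reln (1.23, SE 0.46, adjusted p = 0.0365), Vldlr and Dab1, and negative for Lrp8. For Reln this call was lost with a pseudocount of 0.1 (0.97, adjusted p = 0.103) and without 6 libraries in turn (0.63 to 1.27, adjusted p 0.0724 to 0.141), which were both E11.5 replicates of each population and replicate 2 of E15.5 Ebf2-EGFP+ and of E15.5 Ebf2-EGFP-. These comparisons share the libraries of the separate stages and are not independent of them.

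Scaling of the libraries bears on the small differences. Median-of-ratios scaling moved the median log2 population difference of all listed genes up by 0.19, 0.19 and 0.13 over the stages in turn. The Reln differences (4.48, 5.39 and 5.75 under that scaling) kept their calls, and so did those of Dab1 at both later stages and of Lrp8 at E15.5 (-0.54). The direction of Lrp8 at E13.5 turned, as given above.

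**Figure D3:**
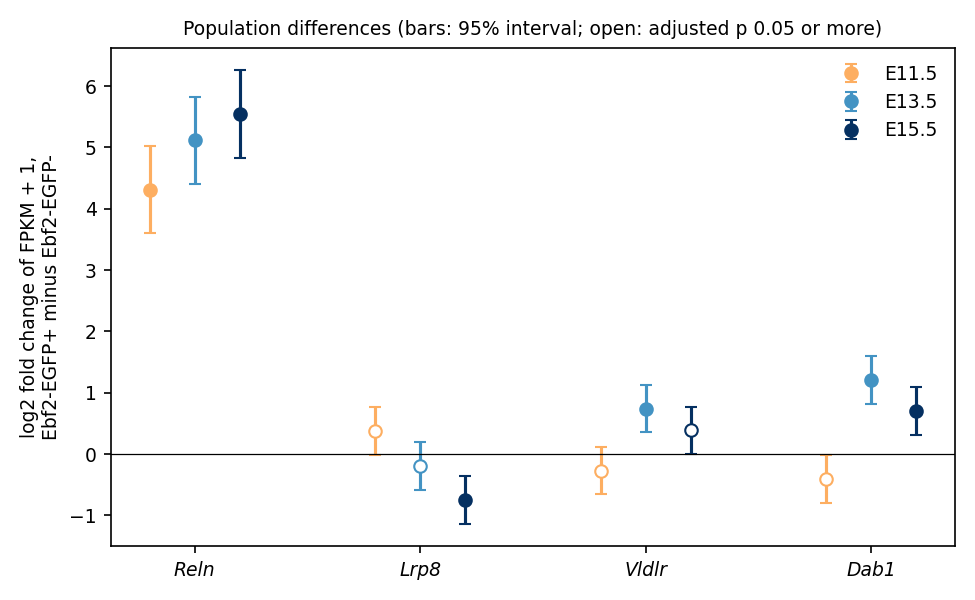
Log2 fold change of FPKM + 1 between the populations (Ebf2-EGFP+ minus Ebf2-EGFP-) for each member and stage, with bars for the 95% interval of the limma fit and open points where the adjusted p is 0.05 or more. Reln lies between 4.31 and 5.54, and the other 3 members lie between -0.75 and 1.21.

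The balance of ligand and adaptor was also compared inside each library, where scaling cancels apart from the pseudocount. The log2 ratio of Reln to Dab1 in Ebf2-EGFP+ libraries was 1.95 and 2.34, then 0.69 and 1.01, then 1.57 and 2.97 over the stages. For Ebf2-EGFP- libraries it was -2.65 and -2.50, then -3.11 and -3.00, then -2.42 and -2.73. Every Ebf2-EGFP+ library had more Reln than Dab1 and every Ebf2-EGFP- library less.

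Averaged over the stages, the ratio was higher in Ebf2-EGFP+ cells by 4.49, with 4.72, 3.91 and 4.85 at the separate stages. A two-sided exact permutation test within stages gave p = 0.00926, the smallest value that the 216 arrangements allow (0.0278 adjusted over the 3 ratios tested). As Reln differed far more between the populations than Dab1 did, this outcome restates the Reln difference and is no separate support. The ratio of Vldlr to Lrp8 differed by -0.65 at E11.5 and by 0.94 and 1.13 at the later stages, on average 0.48 (exact permutation p = 0.148, adjusted 0.148). The ratio of Dab1 to the summed receptors differed by -0.70, 1.27 and 1.30, on average 0.62 (exact permutation p = 0.148, adjusted 0.148). For both of these the E11.5 difference had the opposite sign to the later ones, and the test of the average missed the threshold. Without replicate 2 of E11.5 Ebf2-EGFP+ the exact permutation p of the ratio of Dab1 to the summed receptors was 0.0463, for an average of 0.73.

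**Figure D4:**
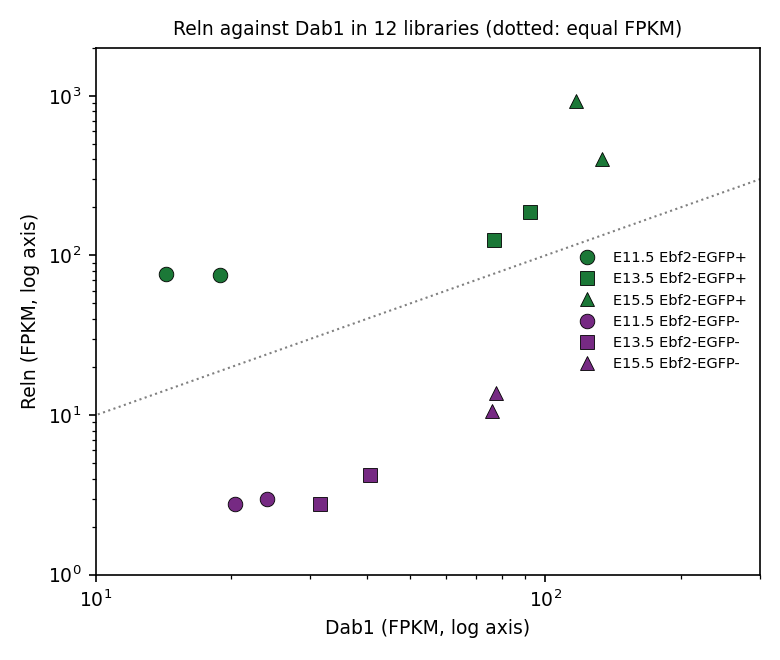
Reln against Dab1 (both FPKM, log axes) in the 12 libraries, where the symbol gives the stage, the colour the population and the dotted line equal FPKM. The 6 Ebf2-EGFP+ libraries lie above the line and the 6 Ebf2-EGFP- libraries below it, and within each population both genes are highest at E15.5.

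Genes with the most similar profile over the 12 libraries were named by Pearson's r of log2(FPKM + 1). The libraries are shared by all genes and fall into 6 groups, so the values are descriptions. For Reln they were Zdhhc9, a palmitoyltransferase gene (r = 0.98), Klhl3, which encodes a substrate adaptor of a ubiquitin ligase (0.98), Iqsec3, an exchange factor gene of inhibitory synapses (0.97), Fam196a (0.97) and Ankrd45 (0.97). Their levels were far lower than those of Reln, with Zdhhc9 at a mean of 34.0 FPKM and Klhl3 at 3.75 in E15.5 Ebf2-EGFP+ cells.

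For Dab1 the nearest profiles were those of Nr4a3, a nuclear receptor gene (r = 0.98), Bend6 (0.98), Acvr1, a BMP and activin receptor gene (0.98), Ifngr2, an interferon receptor subunit gene (0.98), and Sla (0.98). For Vldlr they were Exoc6, an exocyst subunit gene (0.95), Gria3, an AMPA receptor subunit gene (0.95), Bend6 (0.94), Camkv (0.94) and 4833424O15Rik (0.94). Bend6 stood in both lists, and Dab1 and Vldlr correlated with each other at 0.91. For Lrp8 they were Ly6g6e (0.93), Unc5d, a netrin receptor gene (0.93), Gramd4 (0.93), Gpm6b, a membrane glycoprotein gene (0.93), and Sema3c, a secreted guidance cue gene (0.93). Reln correlated with Dab1 at 0.55, with Vldlr at 0.57 and with Lrp8 at 0.02 over the 12 libraries.

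Beyond the 4 members, 83 genes of the reelin pathway were listed by role, and 41 of them were in the table. At the first stage 21 were higher in Ebf2-EGFP+ cells and 15 lower, where 36.8% and 44.9% of all listed genes were, and their median log2 difference was 0.38 beside -0.19 over all listed genes. At E13.5 the counts were 15 and 16, beside 32.1% and 43.5%, with a median of -0.12 beside -0.19. By E15.5 they were 9 and 14, beside 25.8% and 31.6%, with a median of -0.01 beside -0.11. The called shares of 87.8%, 75.6% and 56.1% were near those of all listed genes.

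Genes that act on the receptors themselves were few in the table. Sorl1, which encodes a sorting receptor of the LDL receptor family, had 17.8 and 22.8 FPKM in Ebf2-EGFP+ against 4.02 and 3.64 FPKM in Ebf2-EGFP- libraries at E11.5, but 3.55 and 4.02 against 15.1 and 22.6 FPKM at E15.5. Its population difference went from 2.13 through -1.67 to -2.03, all called, and the change of -4.16 (adjusted p = 1.91e-06) was called. Lrpap1, the gene of the receptor chaperone RAP, was lower at E15.5 alone among the stages (-0.57, adjusted p = 0.00696).

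Other ligands of these receptors were on the side of the Ebf2-EGFP- cells. Sparc, which encodes a matricellular protein, differed by -2.95, -3.21 and -2.44 at the 3 stages, and Thbs1, the thrombospondin-1 gene, by -2.18, -2.55 and -2.43. Apoe, the apolipoprotein E gene, differed by -2.16, -1.21 and -1.67. Clu, the clusterin gene, was lower at E11.5 (-1.51) and not called at E13.5 (-0.12) and E15.5 (0.12). The radial glia markers lay on the same side, at 1053 to 1624 against 201 to 430 FPKM at the first 2 stages together and 456 to 817 against 89.0 to 152 FPKM at E15.5. So did the 7 meninges or fibroblast markers, at 115 to 136 against 43.1 to 48.7 FPKM at E11.5. Their sums were 5.79 to 7.61 against 1.25 to 1.90 FPKM at E13.5 and 4.69 to 4.94 against 1.01 to 2.96 FPKM at E15.5. Which cells carried the reads of these ligand genes was not tested.

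Reelin is cut by proteases after secretion, and 5 of the 9 listed protease and inhibitor genes were in the table. Adamts3, which encodes a metalloprotease that cuts the N-terminal part of reelin, had 0.184 and 0.614 FPKM in Ebf2-EGFP+ against 2.88 and 2.93 in Ebf2-EGFP- libraries of the first stage, then 18.2 and 21.3 against 5.72 and 8.68, and at last 21.5 and 12.4 against 8.20 and 6.20. The log2 difference went from -1.50 to 1.36 and 1.09, all called, and changed by 2.59 (adjusted p = 0.000214). Serpini1, which encodes the protease inhibitor neuroserpin, was higher in the Ebf2-EGFP+ population by 3.38 at E11.5 and 0.85 at E13.5, and stood at 0.41 at E15.5 (adjusted p = 0.0599). Plat, the gene of tissue plasminogen activator, went from -0.81 and -0.61 to 0.17 (adjusted p = 0.492). Pcsk5, a proprotein convertase gene, was lower at E11.5 (-0.59) and higher at E15.5 (1.13), and its relative Pcsk6 was lower at E11.5 (-1.17) and E13.5 (-0.75).

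Downstream of DAB1, Fyn, which encodes a kinase that phosphorylates it, was higher in the Ebf2-EGFP+ population at E11.5 (1.57, adjusted p = 1.00e-06), and it differed by 0.29 at E13.5 (adjusted p = 0.0552) and -0.30 at E15.5 (adjusted p = 0.0571). Yes1, a kinase gene of the same family, was lower at E11.5 (-1.21) and E13.5 (-1.002). Rap1gap, which encodes a protein that switches off the GTPase RAP1, was higher at all stages, by 0.38, 1.23 and 0.98. Of the PI3K subunit genes, Pik3r3 (1.06) and Pik3r2 (0.58) were higher at E11.5, and neither was called at E15.5. Socs6, whose protein takes part in the breakdown of phosphorylated DAB1, was lower at E13.5 (-0.73) and E15.5 (-0.54).

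The population difference of 6 of 7 genes for microtubules and their motors was lower at E15.5 than at E11.5 by the test of its change, where 27.7% of all listed genes were. These 7 genes belong to the Lis1 and dynein machinery, Cdk5 activation and microtubules. At the first 2 stages 6 of them were higher in Ebf2-EGFP+ cells, beside 36.8% and 32.1% of all listed genes. At the last stage 4 were, beside 25.8%. Dcx, which encodes the microtubule protein doublecortin, went from 2.81 through 0.82 to -0.11 (adjusted p = 0.683), and Cdk5r1, a gene of a CDK5 activator, from 2.16 through 1.08 to 0.31 (adjusted p = 0.149). Mapt, the tau gene, stayed higher at 2.71, 1.90 and 1.08. The exception was Nde1, whose product binds LIS1 in dividing progenitors, at -1.88, -2.57 and -2.14. Between the same stages the summed cortical plate markers went from at most 107 FPKM to 976 to 1100 FPKM in Ebf2-EGFP- cells and stood at 521 to 595, then 753 to 1132 FPKM in Ebf2-EGFP+ cells, and their part in these differences was not tested. Of 3 actin genes, Limk2, a cofilin kinase gene, led at E11.5 (1.01), Nck1, an adaptor gene, at E13.5 (-1.31) and Wasl, an actin nucleation gene, at E15.5 (-0.51).

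Adhesion molecules and co-receptors formed the largest role, with 12 of 16 genes in the table. At E11.5, 7 were higher in Ebf2-EGFP+ cells and 3 lower, beside 36.8% and 44.9% of all listed genes, and at E15.5, 2 were higher and 6 lower, beside 25.8% and 31.6%. In Ebf2-EGFP- cells the radial glia markers summed to 1341 to 1624 FPKM at the first of these stages and 456 to 817 FPKM at the last, while the cortical plate markers were higher at the last, and their part in these counts was not tested. Notch1, a receptor gene of progenitors, was lower throughout (-2.20, -3.13 and -2.87). Pvrl3, which encodes nectin-3, was lower at E11.5 (-2.32) and E13.5 (-1.60), whereas its partner Pvrl1 was higher at E11.5 (1.51). Nrp1, a semaphorin receptor gene, went from 1.39 through -0.45 (adjusted p = 0.0666) to -1.05, and App and Aplp1, amyloid precursor family genes, were higher at all stages, App by 0.90, 0.60 and 0.57. Of the 4 polarity genes 0 were in the table.

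**Figure D5:**
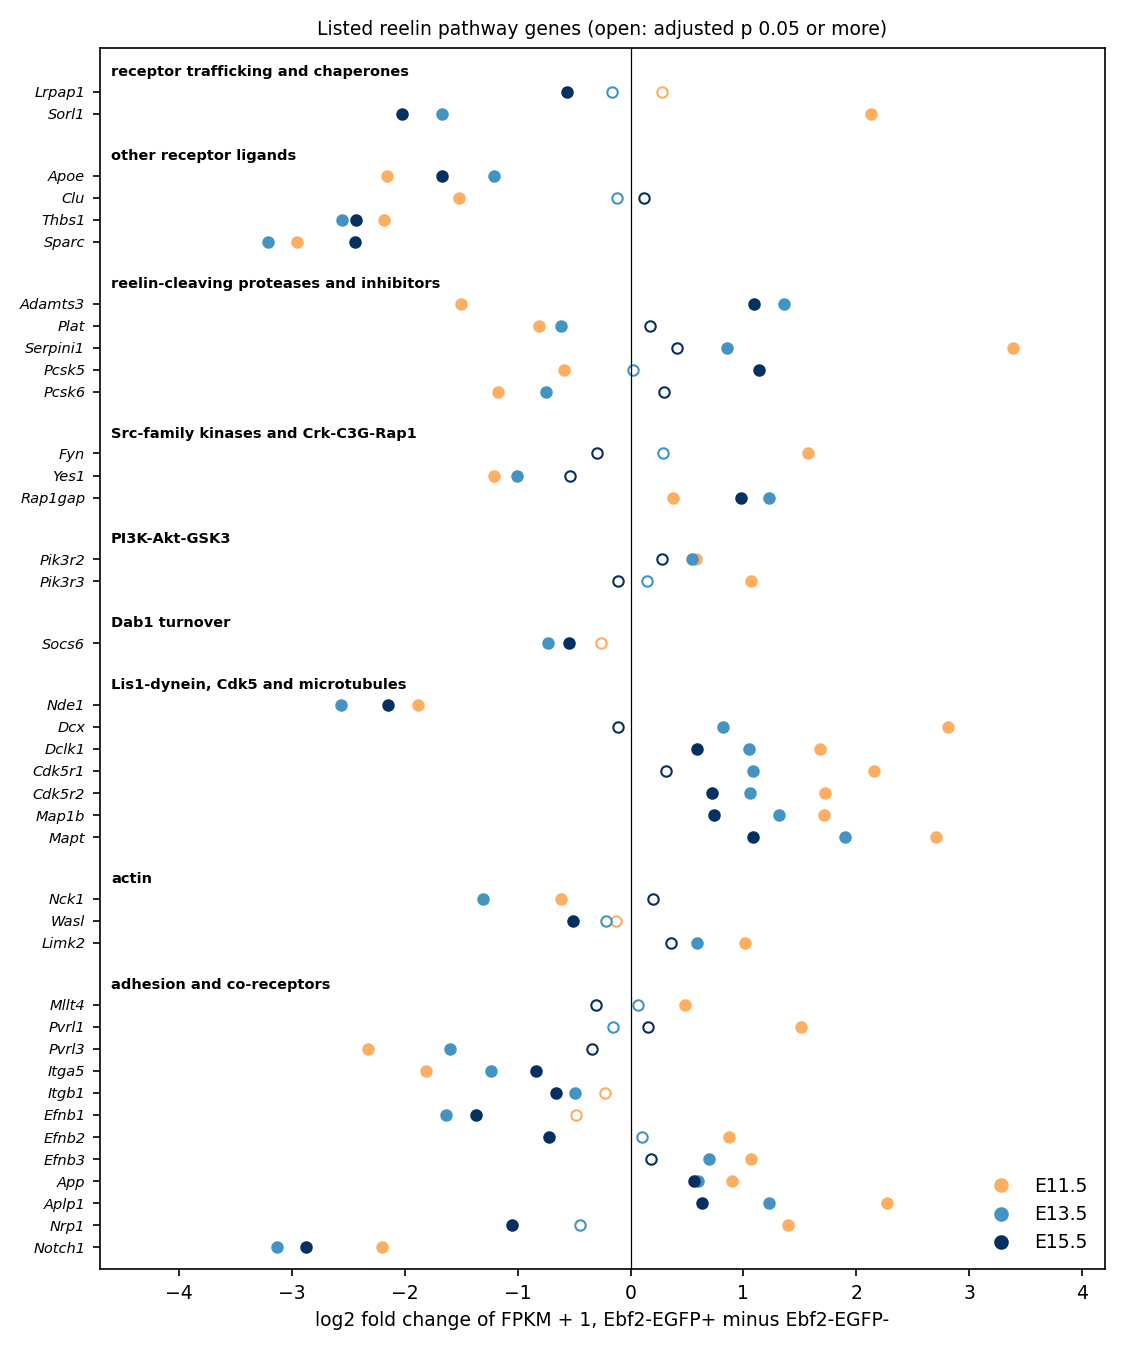
Log2 fold change of FPKM + 1 between the populations (Ebf2-EGFP+ minus Ebf2-EGFP-) for 39 of the listed pathway genes other than the members, ordered by role and coloured by stage, with open points where the adjusted p is 0.05 or more. The microtubule genes apart from Nde1 move towards 0 from E11.5 to E15.5, Sorl1 and Adamts3 change side in opposite directions, and Sparc, Thbs1, Apoe and Notch1 stay on the negative side.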

How the data were processed

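RNA of FACS-selected Ebf2-EGFP+ and Ebf2-EGFP- cortical cells was sequenced from 12 libraries. Per the submitters' processing notes and the paper's methods, the authors aligned reads to mm10 (GRCm38) with TopHat 2.0.8b and deposited FPKM computed by Cufflinks 2.2.0 over protein-coding genes, only for genes reported as differential. Any further scaling, and whether strand was kept, are not given in the sources used here. The authors' fold, p-value, q-value and mean columns and the lncRNA table were not used.

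Libraries were grouped by stage and population. log2(FPKM + 1) was fitted with limma 3.58.1 (R 4.3.3, trend) as 6 groups without covariates, adjusted over all 4859 genes, and the fit was tested on simulated data. Ratios within libraries were compared by exact permutation within stages (scipy 1.17.1). The limma p-values rest on the spread between the 2 libraries of a group, pooled over all 6 groups and moderated over the listed genes. It is not the spread of the compared groups alone. Depth per library could not be recovered: at most 60.4% of replicate ratios of genes under 0.15 FPKM lay within 1% of ratios of whole fragments. Same-numbered libraries of both populations deviated together (r = 0.43, 0.53 and 0.43 at the 3 stages, against -0.069 to 0.45 between groups of different stages). For population differences, numbers were therefore taken as pairs in an alternative fit with the replicate block. For stage changes the block was a shared term for the replicate number over all stages. Alternatives changed the pseudocount (0.1 or 10), scaling, low-value filter (mean FPKM of at least 1), trend, libraries in the fit and block, or left out each library.

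All 4 members were named, as was the called gene of each role with the largest difference at each stage and the 5 nearest profiles per member, except that 2 pathway genes in the table are not reported here. Members and lists were chosen with earlier results of these data known. Promoter windows are from RefSeq (GRCm38.p6) and positions from GENCODE M21.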

Additional observations from a re-analysis of the deposited data

Results flagged for a closer look

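For all 4 members the population difference itself changed between E11.5 and E15.5, by the interaction contrast of the limma fit over all listed genes. The change was 1.23 for Reln (adjusted p = 0.0365), whose difference went from 4.31 to 5.54 and whose Ebf2-EGFP+ libraries were higher at both stages in every pair of libraries. It was -1.12 for Lrp8 (adjusted p = 0.00292), whose difference went from 0.37 to -0.75 with libraries that did not overlap at either stage. It was 0.66 for Vldlr (adjusted p = 0.0357), from -0.27 to 0.39, and 1.10 for Dab1 (adjusted p = 0.00325), from -0.41 to 0.70, again without overlap at either stage. The calls of Lrp8 and Dab1 held without each library in turn, and those of Reln and Vldlr did not.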

How the results depend on the processing

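Of 862 recomputed values, 812 kept their direction and their side of the threshold, 28 lost a call, 16 gained one and 6 changed sign. Leaving out a library made up 552 of them. Where that library lay outside the compared groups, the difference itself could not change, so the total overstates how far the results were tried. Among the 310 other alternatives 294 were unchanged. The population differences of Reln, of Dab1 at E13.5 and E15.5, of Vldlr at E13.5 and of Lrp8 at E15.5 were called in all alternatives run. Below, the first step is the change between E11.5 and E13.5 and the last step that between E13.5 and E15.5. With a pseudocount of 10 the Reln change in Ebf2-EGFP- cells over the last step was 0.71 and no longer called, and the Vldlr difference at E15.5 was 0.15 and called. With a pseudocount of 0.1 the change of the Reln population difference was 0.97 and not called, and the E11.5 Dab1 difference was -0.43 and called. Median-of-ratios scaling gave calls to Lrp8 at E11.5 (0.62), Lrp8 in Ebf2-EGFP+ cells over both steps (0.53), Vldlr at E15.5 (0.57) and Vldlr in Ebf2-EGFP- cells over the last step (0.44), and turned uncalled values of Lrp8 at E13.5 (0.11) and of Vldlr over the last step in Ebf2-EGFP+ cells (0.011). It also moved the share of higher genes among those called in Ebf2-EGFP+ cells over the first step from 37.6% to 48.2%. A fit of the compared groups alone ended the calls of Lrp8 (0.57, last step) and Vldlr (0.43, both steps) in Ebf2-EGFP- cells and gave one to Dab1 at E11.5 (-0.41). For population differences the replicate block pairs the populations of a stage. For stage changes it is a shared term for the replicate number over all stages, whose libraries no label links. The block gave calls at E11.5 to Lrp8 (0.37) and Dab1 (-0.41) and at E15.5 to Vldlr (0.39), and changed no other call. The cause of these changes was not tested.

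Leaving out 1 library at a time gave ranges of 0.71 to 1.29 for Reln in Ebf2-EGFP+ cells over the first step, -0.045 to 0.43 for Reln in Ebf2-EGFP- cells over the same step (negative without replicate 2 of E13.5), and 0.63 to 1.84 for the change of the Reln difference. For Lrp8 they were 0.20 to 0.55 at E11.5, -0.0073 to 0.051 in Ebf2-EGFP+ cells over the last step and 0.40 to 0.74 in Ebf2-EGFP- cells over that step. For Vldlr they were 0.24 to 0.54 at E15.5, -0.13 to 0.12 in Ebf2-EGFP+ cells over the last step (also 0.0055 without replicate 2 of E15.5), 0.28 to 0.58 in Ebf2-EGFP- cells over both steps and 0.51 to 0.81 for the change of the difference. For Dab1 they were -0.60 to -0.22 at E11.5, 0.43 to 0.69 in Ebf2-EGFP+ cells over the last step and 0.49 to 0.85 in Ebf2-EGFP- cells over the first step. The ratio of Dab1 to the summed receptors ranged from 0.52 to 0.73. A group left with 1 library was assumed to vary like the others. The 2 libraries per group, and a depth not known for each library, limit how small a difference these data can show, and the table holds only genes selected on the same libraries.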
